A study of Mus musculus with 6 samples.

Results

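A set of 10 genes that read out or carry the last step of Wnt signalling in the intestinal crypt were followed in organoids given arachidonic acid. They were taken as a named list, 7 target genes (Cd44, Ephb2, Ephb3, Sox9, Myc, Zfp703 and Prox1) and 3 DNA-binding factors (Lef1, Tcf7 and Tcf7l2), and all 10 were found by symbol among the 53953 rows listed for each library. Such organoids are epithelial structures that grow out of isolated crypts in Matrigel. The treated group was wild-type C57BL/6 organoids from the proximal small intestine, at passage 3 to 5, that received arachidonic acid, an omega-6 fatty acid, in 0.1% ethanol for 3 days and were then passaged. The vehicle group was the same kind of organoid with 0.1% ethanol alone. RNA was taken on day 3 after passaging, with 3 libraries in each group. The labels state neither the dose nor whether replicate libraries were made from separate cultures or mice. The p-values thus reflect only how far these libraries spread, and that spread may be technical.

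When a Wnt ligand binds its receptor, beta-catenin is spared from destruction, enters the nucleus and binds TCF/LEF factors on DNA, which turns on target genes. Without beta-catenin the same factors hold TLE co-repressors at those genes. In the small intestine this signal is strongest at the crypt base, where it keeps stem cells and Paneth cells, and the EphB receptors among its targets sort cells along the crypt by repulsion from ephrin-B on their neighbours.

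Values were FPKM, fragments per kilobase of transcript scaled to library depth, and the libraries held 35.6 M to 50.8 M fragments. Arachidonic acid replicate 1 stood apart on the first principal component of 12913 tested genes, which held 85.2% of the variance, at 10.2 against 54.6 and 58.1 in the other arachidonic acid libraries and -41.6 to -40.4 with vehicle. For those of the 10 genes that were called, the log2 fold change is therefore also given without it. The epithelial markers Krt8, Vil1, Cdh1, Epcam, Krt20 and Cdx2 summed to 2749 to 2996 FPKM with arachidonic acid and 2085 to 2173 FPKM with vehicle. Krt8 rose, at 1632 FPKM with arachidonic acid and 759 FPKM with vehicle, Epcam and Cdx2 fell, and the other 3 did not pass. The sums of 7 fibroblast markers were 0.111 to 0.364 FPKM with arachidonic acid and 0.287 to 0.426 FPKM with vehicle. The 8 blood and immune markers summed to 4.95, 25.3 and 17.7 FPKM with arachidonic acid, against 3.17, 3.02 and 2.03 FPKM with vehicle. Of these Cd68, a lysosomal protein of macrophages, was the 1 tested and rose (limma adjusted p = 0.028), at 3.52, 23.9 and 16.8 FPKM with arachidonic acid and 2.14, 2.02 and 1.53 FPKM with vehicle. With limma-voom Cd68 did not pass. Itgam lay higher without overlap, at no more than 0.455 FPKM with arachidonic acid and 0.146 FPKM with vehicle, and the pan-leukocyte Ptprc was at no more than 0.0474 FPKM with arachidonic acid and 0.0179 FPKM with vehicle. Their part in the results below was not tested.

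The 300 bases around the start of Cd44, Ephb2 and Ephb3, the surface receptors whose responses are set against each other, are shown from RefSeq on GRCm38.p6, 250 bases before the start and 50 from it. They lie at chr2:102901616-102901915 on the minus strand, chr4:136835963-136836262 on the minus strand and chr16:21204545-21204844 on the plus strand. Capitals mark the TCF/LEF core CTTTG, read on either strand, so that CAAAG is the same core on the other strand.
Cd44: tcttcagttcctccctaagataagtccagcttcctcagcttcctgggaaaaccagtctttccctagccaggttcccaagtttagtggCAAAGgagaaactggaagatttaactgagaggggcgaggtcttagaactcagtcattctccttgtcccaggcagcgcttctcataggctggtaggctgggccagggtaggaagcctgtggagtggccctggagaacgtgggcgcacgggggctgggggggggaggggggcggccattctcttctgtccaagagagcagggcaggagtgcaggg
Ephb2: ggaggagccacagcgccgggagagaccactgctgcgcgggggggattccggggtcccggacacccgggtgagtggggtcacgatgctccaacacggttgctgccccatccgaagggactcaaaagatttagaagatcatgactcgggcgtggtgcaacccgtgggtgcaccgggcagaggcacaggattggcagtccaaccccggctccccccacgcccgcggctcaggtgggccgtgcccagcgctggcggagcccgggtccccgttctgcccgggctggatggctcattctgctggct
Ephb3: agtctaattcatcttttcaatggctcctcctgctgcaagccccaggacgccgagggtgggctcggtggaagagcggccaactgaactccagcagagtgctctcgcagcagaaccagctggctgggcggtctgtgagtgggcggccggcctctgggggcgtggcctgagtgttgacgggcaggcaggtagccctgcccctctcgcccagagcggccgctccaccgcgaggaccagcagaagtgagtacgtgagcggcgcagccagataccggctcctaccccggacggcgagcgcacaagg
The core stood once in the Cd44 window, starting 163 bases before the gene's start, and in neither Eph receptor window. It occurred in 8 of the 13 windows listed for 7 of the 10 genes, those of Cd44, Lef1, Prox1 and Tcf7l2, and in 53.9% of all 32851 such windows. The longer form CTTTGA, also read on both strands and containing the core, was in 16.0% of all windows and in 1 of those 13, a window of Lef1. A match is a string of letters and not a binding site, and its absence covers this window only.

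With arachidonic acid Cd44, Ephb2 and Tcf7 rose, 3.24-fold, 1.69-fold and 1.66-fold as ratios of group means, and Zfp703 fell to 0.640 of its vehicle level. The other genes did not pass or were too low to test. Of the 10 genes, 8 averaged 1 FPKM or more and were tested with limma on log2(FPKM + 1), the p-values being adjusted (Benjamini-Hochberg) over the whole table of tested genes. Of these 8, 3 were higher, 1 was lower and 4 did not pass at an adjusted p of 0.05, where 20.8% of all tested genes were higher and 19.4% lower, 40.2% together. The groups did not overlap for 4 higher genes and 1 lower gene of the 8, where this held for 27.6% and 27.5% of all tested genes, 55.0% together. The median log2 fold change of the 8 was 0.19, against -0.03 over all tested genes. A list with 4 of 8 called thus lies near the share called over all tested genes.

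**Figure D1:**
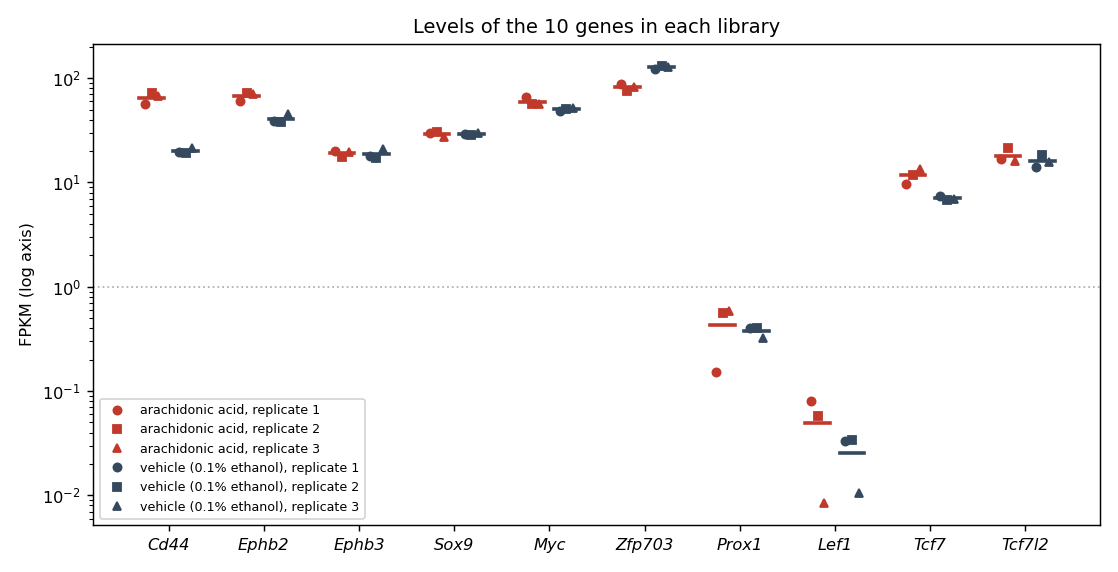
FPKM of each of the 10 genes in every library on a log axis, with arachidonic acid in red, vehicle in grey-blue, 1 symbol per replicate number, short bars for group means and a dotted line at 1 FPKM. Cd44, Ephb2, Myc and Tcf7 lay higher in all 3 arachidonic acid libraries and Zfp703 lower, while Prox1 and Lef1 lay under 1 FPKM in every library.

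Cd44 (ENSMUSG00000005087, chr2:102811141-102901665) encodes a cell-surface hyaluronan receptor of crypt cells. Gene coordinates here and below are those of GENCODE M21 on GRCm38. It was at 56.2, 71.3 and 67.6 FPKM with arachidonic acid, against 19.7, 19.2 and 21.3 FPKM with vehicle. The lowest arachidonic acid library thus lay well above the highest vehicle library. The means of 65.0 ± 7.85 FPKM with arachidonic acid and 20.1 ± 1.10 FPKM with vehicle (SD, n = 3 libraries each, as below) differed 3.24-fold, with a log2 fold change of 1.64 (SE 0.10, limma adjusted p = 0.00041). Without arachidonic acid replicate 1 it was 1.74.

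Ephb2 (ENSMUSG00000028664, chr4:136647539-136835988) and Ephb3 (ENSMUSG00000005958, chr16:21204755-21223305) encode receptor tyrosine kinases for ephrin-B ligands. Ephb2 was at 60.6, 72.4 and 71.2 FPKM with arachidonic acid, against 38.5, 37.6 and 45.0 FPKM with vehicle, and the groups did not overlap. Its means of 68.1 ± 6.49 FPKM with arachidonic acid and 40.4 ± 4.06 FPKM with vehicle differed 1.69-fold, with a log2 fold change of 0.74 (SE 0.10, limma adjusted p = 0.0030), and 0.82 without arachidonic acid replicate 1. Ephb3, whose product helps to place Paneth cells at the crypt base, was at 20.0, 17.7 and 19.5 FPKM with arachidonic acid, against 18.1, 17.0 and 20.8 FPKM with vehicle. The groups overlapped throughout. Its log2 fold change was 0.03 with a 95% interval of -0.20 to 0.26 (limma adjusted p = 0.80), and its sign changed when arachidonic acid replicate 1 or vehicle replicate 2 was left out.

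The ratio of Ephb2 to Ephb3 within a library was computed after their values were seen. It was 3.03, 4.10 and 3.66 with arachidonic acid, against 2.13, 2.22 and 2.17 with vehicle. The arachidonic acid libraries all lay above the vehicle libraries, which differed little among themselves. The log2 ratio, taken on FPKM + 1, was higher by 0.71. A two-sided exact permutation test gave p = 0.1, the smallest p that 3 libraries against 3 can give. The pair was picked from these same values, so that p gives the difference no support.

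Sox9 (ENSMUSG00000000567, chr11:112782224-112787760), a transcription factor of crypt progenitors that Paneth cells need, was at 29.8, 30.1 and 27.3 FPKM with arachidonic acid, against 29.2, 28.3 and 30.0 FPKM with vehicle. The 6 libraries overlapped, between 27.3 and 30.1 FPKM. Its log2 fold change was -0.01 with a 95% interval of -0.17 to 0.16 (limma adjusted p = 0.94), and TPM rescaling and median-of-ratios scaling turned its sign. Of 7 tested Paneth cell markers, which include lysozyme and defensins, 5 fell and none rose, where 19.4% of all tested genes were lower. The list summed to 993, 451 and 594 FPKM with arachidonic acid, against 2905, 2558 and 1945 FPKM with vehicle. The part of Paneth cell number in the Sox9 and Ephb3 values was not tested, and in bulk RNA fewer cells of a type and less RNA per cell cannot be told apart.

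Myc (ENSMUSG00000022346, chr15:61985391-61990374), a transcription factor that drives cell growth, was at 65.3, 56.1 and 55.9 FPKM with arachidonic acid, against 48.8, 50.2 and 51.6 FPKM with vehicle. All 3 arachidonic acid libraries lay above the vehicle libraries, and replicate 1 was the highest. Its log2 fold change was 0.23 with a 95% interval of 0.04 to 0.42 (limma adjusted p = 0.057), so it did not pass. TPM rescaling (adjusted p = 0.030) and median-of-ratios scaling (0.023) each brought it past the threshold. So did leaving out arachidonic acid replicate 1, at a log2 fold change of 0.16 and a limma adjusted p of 0.042. Over all 15 alternatives the adjusted p ran between 0.023 and 0.16. None of 5 tested cycling genes (Mki67, Top2a, Pcna, Ccnb1 and Cdk1) passed in limma, 0 were under an unadjusted p of 0.05 and 0 passed with limma-voom.

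Zfp703 (ENSMUSG00000085795, chr8:26977325-26981461) encodes a zinc finger co-regulator of transcription. It was at 87.4, 74.4 and 82.8 FPKM with arachidonic acid, against 123, 131 and 128 FPKM with vehicle. The highest arachidonic acid library lay below the lowest vehicle library. The means of 81.5 ± 6.58 FPKM with arachidonic acid and 127 ± 4.02 FPKM with vehicle gave a ratio of 0.640 and a log2 fold change of -0.64 (SE 0.08, limma adjusted p = 0.0019), and -0.69 without arachidonic acid replicate 1. An annotated antisense gene, Gm45371, shares 459 exonic bases with it and was listed at 0 in all 6 libraries, but without a stated strand setting the reads of the shared bases cannot be told apart.

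Prox1 (ENSMUSG00000010175, chr1:190118035-190170714), a homeobox factor known from lymphatic vessels and from enteroendocrine cells of the gut, was too low for the test. It was at 0.152, 0.558 and 0.590 FPKM with arachidonic acid, against 0.403, 0.400 and 0.320 FPKM with vehicle. These values rest on 37, 95 and 137 fragments with arachidonic acid and on 72, 70 and 59 fragments with vehicle. Arachidonic acid replicate 1 was the lowest of all 6 libraries and the other arachidonic acid libraries were the highest. With no filter on low values its limma adjusted p was 0.84. Of 8 enteroendocrine markers 5 were tested and called lower (limma, threshold 0.05), where 19.4% of all tested genes were lower. Among them Neurod1 passed the filter only for its values with vehicle, so it gives the count no support. The list of 8 summed to 88.2, 53.2 and 51.8 FPKM with arachidonic acid, against 331, 328 and 289 FPKM with vehicle. The endothelium list, which holds Prox1 itself, summed to 2.44, 3.18 and 3.21 FPKM with arachidonic acid and 2.39, 3.19 and 3.52 FPKM with vehicle. Most of that was the lymphatic marker Lyve1, at 2.16, 2.52 and 2.55 FPKM with arachidonic acid and 1.88, 2.60 and 3.16 FPKM with vehicle, which did not pass. Pecam1 was at no more than 0.111 FPKM with arachidonic acid and 0.188 FPKM with vehicle, and Cdh5, Kdr and Flt4 were at no more than 0.00801 FPKM with arachidonic acid and listed at 0 in all 3 vehicle libraries. The part of these cell types in the Prox1 values was not tested.

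**Figure D2:**
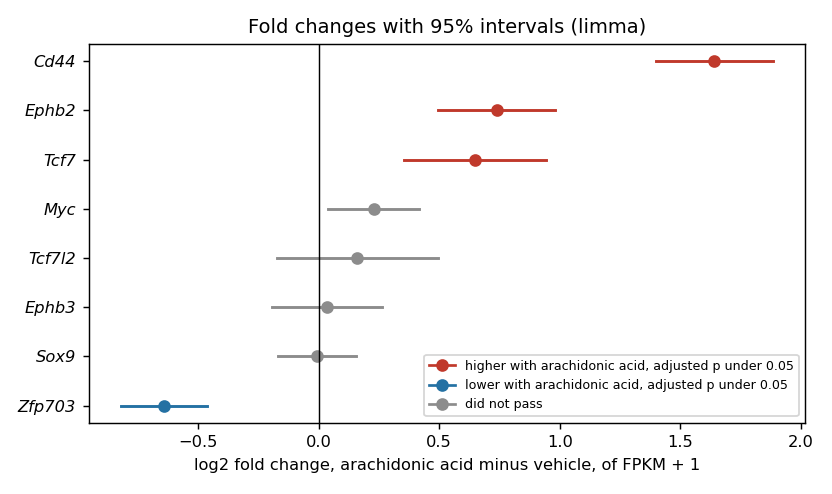
Log2 fold change of FPKM + 1, arachidonic acid minus vehicle, for the 8 tested genes, with points for the limma estimate and lines for its 95% interval, in red and blue where the adjusted p was under 0.05. Cd44 at 1.64 stood apart from Ephb2 at 0.74 and Tcf7 at 0.65, Zfp703 at -0.64 was the 1 gene called lower, and the intervals of Tcf7l2, Ephb3 and Sox9 crossed 0.

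Of the TCF/LEF factors, Tcf7 rose and Tcf7l2 did not pass. Tcf7 (ENSMUSG00000000782, chr11:52252371-52283014), which encodes TCF1, was at 9.68, 11.9 and 13.4 FPKM with arachidonic acid, against 7.43, 6.71 and 6.93 FPKM with vehicle. The groups did not overlap, and arachidonic acid replicate 1 was nearest to the vehicle libraries. Its means of 11.7 ± 1.88 FPKM with arachidonic acid and 7.02 ± 0.369 FPKM with vehicle differed 1.66-fold, with a log2 fold change of 0.65 (SE 0.12, limma adjusted p = 0.0082), and 0.77 without arachidonic acid replicate 1.

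Tcf7l2 (ENSMUSG00000024985, chr19:55741820-55933654) encodes TCF4, the factor best known for carrying the Wnt signal in gut epithelium. It was at 16.7, 21.5 and 15.9 FPKM with arachidonic acid, against 14.1, 18.2 and 15.6 FPKM with vehicle. The groups overlapped, and replicate 2 was the highest of either group. The log2 fold change of 0.16 had a 95% interval of -0.17 to 0.49 (limma adjusted p = 0.39).

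Lef1 (ENSMUSG00000027985, chr3:131110471-131224356) was near the detection limit, at 0.0807, 0.0576 and 0.00844 FPKM with arachidonic acid and 0.0329, 0.0336 and 0.0106 FPKM with vehicle. That is 10, 5 and 1 fragments with arachidonic acid against 3, 3 and 1 fragments with vehicle, too few to compare. The groups overlapped. The related repressor-type factor Tcf7l1 was also under 1 FPKM and not tested, though above Lef1 in each arachidonic acid library, at 0.134, 0.361 and 0.0777 FPKM with arachidonic acid and at 0.0404, 0 and 0.0196 FPKM with vehicle. These rest on 9, 17 and 5 fragments with arachidonic acid and 2, 0 and 1 with vehicle, and the groups did not overlap. With no filter on low values the limma adjusted p of Tcf7l1 was 0.16.

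On FPKM, whose order between genes depends on the gene length used, the 4 factor genes summed to 26.6, 33.9 and 29.4 FPKM with arachidonic acid, against 21.6, 24.9 and 22.6 FPKM with vehicle. Tcf7 made up 36.4%, 35.2% and 45.6% of that sum with arachidonic acid, against 34.4%, 26.9% and 30.7% with vehicle. The groups did not overlap, by a narrow margin. The ratio of Tcf7 to Tcf7l2, also computed after their values were seen, was 0.579, 0.553 and 0.844 with arachidonic acid, against 0.526, 0.369 and 0.443 with vehicle. The log2 ratio, taken on FPKM + 1, was higher by 0.49, and by 0.31 without arachidonic acid replicate 3. Its two-sided exact permutation test gave p = 0.1, the smallest p possible, and gives no support for the same reason as above.

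**Figure D3:**
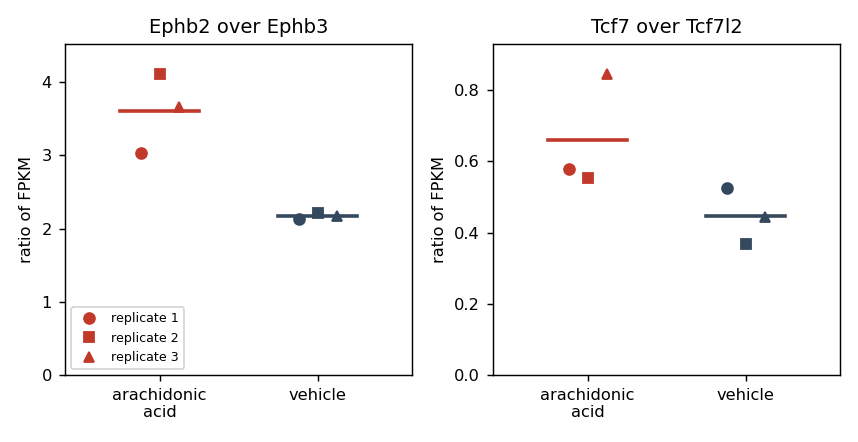
Ratio of FPKM within each library for Ephb2 over Ephb3 (left) and Tcf7 over Tcf7l2 (right), with arachidonic acid left of vehicle, 1 symbol per replicate number and bars for group means. The Ephb2 to Ephb3 ratio was 3.03 to 4.10 with arachidonic acid and 2.13 to 2.22 with vehicle, and that of Tcf7 to Tcf7l2 was 0.553 to 0.844 with arachidonic acid and 0.369 to 0.526 with vehicle.

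The order of the levels within a group depends on the gene length used. On FPKM, with the mean annotated transcript length, Zfp703 led in both groups, and it was followed with arachidonic acid by Ephb2, Cd44 and Myc and with vehicle by Myc, Ephb2, Sox9 and Cd44. With arachidonic acid the ranges of Ephb2 and Cd44 overlapped, as did those of Cd44 and Myc, and of Ephb3 and Tcf7l2. With vehicle Cd44 overlapped Ephb3, which overlapped Tcf7l2. Divided instead by merged exon length, 3392 bases for Zfp703 in place of a mean transcript of 1157 bases, Myc led with arachidonic acid at 36.9 ± 3.34 fragments per kilobase on the same depth scale, and Zfp703 still led with vehicle at 43.5 ± 1.37. On that scale Tcf7 stood above Tcf7l2 in both groups, at 7.76 to 10.8 for Tcf7 and 3.76 to 5.10 for Tcf7l2 with arachidonic acid and 5.39 to 5.96 and 3.35 to 4.30 with vehicle, the reverse of their order on FPKM. The ratio of a gene's group means does not depend on this length.

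Of 18 tested of 20 partners of the TCF factors, 4 rose, 3 fell and 11 did not pass, a share near the 20.8% higher and 19.4% lower of all tested genes, with a median log2 fold change near 0 (-0.0039). Ctnnb1, which encodes beta-catenin, rose, at 547, 551 and 539 FPKM with arachidonic acid, against 424, 411 and 445 FPKM with vehicle (log2 fold change 0.35, SE 0.06, limma adjusted p = 0.0053). Bcl9, a co-activator that binds beta-catenin, rose, at 43.3 ± 7.38 FPKM with arachidonic acid and 26.2 ± 2.48 FPKM with vehicle (adjusted p = 0.0082). Tle3, a Groucho-type co-repressor of TCF factors, fell, at 19.9 ± 2.21 FPKM with arachidonic acid and 34.1 ± 2.63 FPKM with vehicle (log2 fold change -0.75, limma adjusted p = 0.0027). Ctnnbip1, whose product ICAT blocks the binding of beta-catenin to TCF, fell too, at 7.62 ± 1.79 FPKM with arachidonic acid and 14.7 ± 0.399 FPKM with vehicle (log2 fold change -0.88, limma adjusted p = 0.0055). These 4 calls held in all 15 alternative settings. Of the other genes of the TLE family, Tle1, Tle2, Tle4 and Tle5 did not pass. Of the CtBP co-repressor genes, Ctbp1 fell, at 207 ± 27.2 FPKM with arachidonic acid and 278 ± 14.7 FPKM with vehicle (limma adjusted p = 0.017), and Ctbp2 rose, at 52.6 ± 2.81 FPKM with arachidonic acid and 42.4 ± 1.43 FPKM with vehicle (limma adjusted p = 0.013). Neither CtBP call held in all alternatives. That on Ctbp1 was lost at least without arachidonic acid replicate 3 or vehicle replicate 1, and that on Ctbp2 at least without vehicle replicate 2. With 1 library left out in turn, 2 to 5 partners were higher, fewest without vehicle replicate 2, and 2 to 5 lower, most without arachidonic acid replicate 1.

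A list of 11 genes held those of the complex that destroys beta-catenin and the tankyrases Tnks and Tnks2, which act on its AXIN. Of 10 tested, 3 rose, 1 fell and 6 did not pass, about the 40.2% called over all tested genes. The median log2 fold change was 0.11. Tnks2, a tankyrase that marks AXIN for breakdown, rose, at 174 ± 13.9 FPKM with arachidonic acid and 117 ± 2.10 FPKM with vehicle (log2 fold change 0.57, limma adjusted p = 0.0025), also in all 15 alternatives. The calls on Apc, Csnk1a1 and Axin1 (log2 fold changes 0.31, 0.37 and -0.26, limma adjusted p = 0.029, 0.031 and 0.029) were each lost in 6 or 7 of the 15 alternatives. Without arachidonic acid replicate 1, 5 genes were higher and 1 lower, and without each other single library 1 or 2 were higher and 0 lower.

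Among ephrins and the other Eph receptors, 4 of 12 tested rose and 3 fell, with a median log2 fold change of 0.10. Beside this, 20.8% of all tested genes were higher and 19.4% lower. The list held 17 genes, and of those tested Epha4 passed the filter only for its values with arachidonic acid, and Efna2 and Epha7 only for those with vehicle, so these 3 had to differ and give the counts no support. Efnb2, a ligand of the EphB receptors, rose, at 42.8, 35.3 and 33.8 FPKM with arachidonic acid, against 22.6, 23.5 and 25.7 FPKM with vehicle (log2 fold change 0.62, limma adjusted p = 0.0056). Efnb1, another ligand, did not pass, at 59.6 to 60.2 FPKM with arachidonic acid and 56.0 to 57.1 FPKM with vehicle. Epha2, an ephrin-A receptor, was at 58.2, 125 and 116 FPKM with arachidonic acid, against 13.4, 15.1 and 12.5 FPKM with vehicle (log2 fold change 2.71, limma adjusted p = 0.0013), and replicate 1 lay between the groups. Epha4 was at 5.29 ± 1.40 FPKM with arachidonic acid, against 0.846 ± 0.155 FPKM with vehicle. Ephb4 fell, at 27.6 ± 4.75 FPKM with arachidonic acid and 47.6 ± 1.93 FPKM with vehicle (log2 fold change -0.78, limma adjusted p = 0.0041). Without arachidonic acid replicate 1, 5 were lower.

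In the MYC network, whose MXD proteins compete with MYC for the partner MAX, 2 of 14 tested genes rose and 5 fell. The median log2 fold change was -0.18, and 20.8% of all tested genes were higher and 19.4% lower. Among the 5 network genes that fell, Mycn passed the filter only for its values with vehicle, where it is high, so it gives the count no support. Mxd1 and Mxi1 rose, Mxd1 at 14.1, 27.5 and 23.5 FPKM with arachidonic acid, against 7.28, 8.26 and 6.89 FPKM with vehicle (log2 fold change 1.37, limma adjusted p = 0.0053). Mxd4 fell, at 6.54 ± 1.72 FPKM with arachidonic acid and 20.3 ± 2.52 FPKM with vehicle (log2 fold change -1.52, limma adjusted p = 0.0018). Mycn, a paralog of Myc, was at 0.925, 0.0430 and 0.0526 FPKM with arachidonic acid, against 3.35, 4.02 and 3.69 FPKM with vehicle (limma adjusted p = 0.0030). Max did not pass, at 66.5 to 69.3 FPKM with arachidonic acid and 71.2 to 74.8 FPKM with vehicle. Without arachidonic acid replicate 1, 8 network genes were lower.

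Of 24 known MYC target genes, mostly of ribosome building and metabolism, 5 rose, 2 fell and 17 did not pass, with a median log2 fold change of 0.03. The shares over all tested genes were 20.8% higher and 19.4% lower. Ldha, lactate dehydrogenase, rose, at 2489 ± 82.4 FPKM with arachidonic acid and 1651 ± 159 FPKM with vehicle (log2 fold change 0.60, limma adjusted p = 0.0038). Cdk4, a cell-cycle kinase, fell, at 267 ± 54.3 FPKM with arachidonic acid and 410 ± 13.4 FPKM with vehicle (log2 fold change -0.64, limma adjusted p = 0.012), and the ribosome-building genes Nolc1 and Rrp12 rose by 0.33 and 0.31 on the log2 scale (limma adjusted p = 0.015 for both), calls lost in 1, 3 and 5 of the 15 alternatives. Fewer target genes were higher without any 1 library but arachidonic acid replicate 1, down to 1 without vehicle replicate 1 or vehicle replicate 2. The lower ones numbered 4 without arachidonic acid replicate 1, 0 without vehicle replicate 1 and 1 without each of the others.

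Of 11 tested of 19 genes of CD44 and hyaluronan biology, 6 rose and 1 fell, with a median log2 fold change of 0.31. The background over all tested genes was 20.8% higher and 19.4% lower. Hyal1 among the 6 passed the filter only for its values with arachidonic acid, so it gives the count no support. Ezr encodes ezrin, which ties CD44 to the actin skeleton. It rose, at 247, 379 and 348 FPKM with arachidonic acid, against 117, 130 and 122 FPKM with vehicle (log2 fold change 1.37, limma adjusted p = 0.0017). Adam10, a protease that sheds CD44, rose, at 109 ± 9.35 FPKM with arachidonic acid and 83.0 ± 3.86 FPKM with vehicle (adjusted p = 0.010), and so did Cemip2, reported to break down hyaluronan, at 3.38 ± 0.362 FPKM with arachidonic acid and 1.85 ± 0.178 FPKM with vehicle (adjusted p = 0.0087). Hyal1, a hyaluronidase, was at 5.34 ± 3.46 FPKM with arachidonic acid and 0.633 ± 0.0364 FPKM with vehicle (limma adjusted p = 0.025), a call lost in 7 of 14 alternatives. The hyaluronan synthase genes Has1 and Has2 were listed at 0 in all libraries but 1, arachidonic acid replicate 3, where Has1 was at 0.0296 FPKM. The third synthase gene, Has3, was detected in all 6 libraries, at 0.0948, 0.218 and 0.171 FPKM with arachidonic acid and 0.315, 0.212 and 0.173 FPKM with vehicle, too low to test. Without vehicle replicate 3 or arachidonic acid replicate 3, 3 genes of the list were higher, and none was lower without arachidonic acid replicate 3 or any 1 vehicle library.

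**Figure D4:**
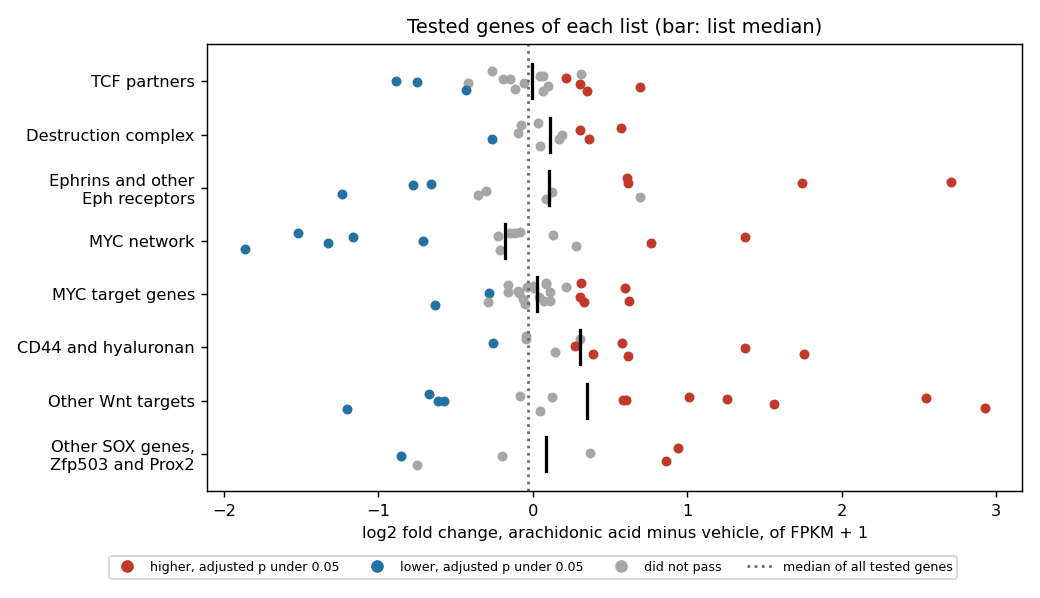
Log2 fold change of FPKM + 1, arachidonic acid minus vehicle, for each tested gene of 8 lists, in red where called higher, blue where called lower and grey where it did not pass, with a black bar for the list median and a dotted line at the median of all tested genes, -0.03. Each of the 8 lists held genes called in both directions, where 20.8% of all tested genes were higher and 19.4% lower, and the list medians ran between -0.18 for the MYC network and 0.35 for other Wnt targets.

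Of 14 tested of 16 other Wnt target genes, 7 rose and 4 fell (median log2 fold change 0.35) and 3 did not pass. Over the whole table of tested genes, 20.8% were higher and 19.4% lower. For Nkd1 and Tnfrsf19, 2 of the 7, only the arachidonic acid values reached the minimum, so they give the count no support. Axin2 and Lgr5 did not pass, with limma log2 fold changes of 0.05 and -0.09, while Ascl2 and Ccnd1 rose by 1.56 and 2.54 on that scale. Of 4 tested stem cell markers, Lgr5 did not pass, Ascl2 rose, and Olfm4 and Smoc2 fell. These 4 markers summed to 288, 227 and 234 FPKM with arachidonic acid, against 527, 505 and 454 FPKM with vehicle. Lrig1 rose by 0.59 and Rgmb fell by 0.67 on the log2 scale (limma adjusted p = 0.0025 and 0.0018). Of 6 tested of 10 relatives of Sox9, Zfp703 and Prox1, 2 rose and 1 fell, beside the same shares over all tested genes. Among those of the 6 that did not pass, 1 reached the minimum only for its values with vehicle. Sox21 rose, at 7.57 ± 1.21 FPKM with arachidonic acid and 3.70 ± 0.580 FPKM with vehicle (limma adjusted p = 0.0054). Sox4 fell, at 35.4 ± 9.28 FPKM with arachidonic acid and 63.7 ± 5.61 FPKM with vehicle (adjusted p = 0.011), a call lost without vehicle replicate 1, where the limma adjusted p was 0.051, the highest over its 15 alternatives. Zfp503, a paralog of Zfp703, went the other way from it, at 9.52, 21.6 and 20.7 FPKM with arachidonic acid, against 7.95, 7.88 and 8.12 FPKM with vehicle (limma adjusted p = 0.037). That call was lost when any library other than arachidonic acid replicate 1 was left out, with no filter and with limma-voom, with a limma adjusted p of at most 0.11.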

How the data were processed

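RNA of 6 organoid libraries was sequenced, and the deposited files list FPKM per gene that the authors computed, a unit inferred from the values. The submitters' processing notes name featureCounts 1.5.0-p3, HISAT2 2.0.5 and StringTie 1.3.3b without roles. For build, annotation and strand setting, nothing is given in the sources used here. Symbols (53274 of 53465 Ensembl rows) came from a separate list of gene names. Coordinates and mean transcript lengths came from GENCODE M21 on GRCm38. Multiplied by that length, FPKM came in equal steps within a library: 96.3% to 96.7% of the values below 100 fragments were whole to within 0.1. The steps gave the depths. Fragments of Sox9, Zfp703, Prox1 and Lef1 came out whole, and those of the other 6 genes did not, so their fragments are approximate and are not printed.

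Genes averaging 1 FPKM or more were tested with limma 3.58.1 (R 4.3.3) on log2(FPKM + 1) with a variance trend, arachidonic acid minus vehicle, two-sided, Benjamini-Hochberg over 12913 genes, threshold 0.05. Adding 1 understates folds of low genes. The test was tried on simulated data. The 10 genes and the lists were chosen with earlier results of these data known. The rule named all 10 genes, up to 4 genes per list with the smallest p, and Ctnnb1, Tcf7l1, Axin2, Lgr5, Ascl2 and Ccnd1. Other genes named, such as Tle1, Ctbp1, Efnb1, Max, Has1 and Has3, were chosen after their values were seen. Tle5 is listed as Aes among the symbols used, and the table of RefSeq genes pairs the names. Alternatives were no filter, a minimum of 5 FPKM, a pseudocount of 0.1, quantile, TPM and median-of-ratios scaling, the replicate number as a block, no variance trend, each library left out, and, added after seeing the data, limma-voom on recovered fragments. Python 3.11.15 with numpy 2.4.6, pandas 2.3.3, scipy 1.17.1 and matplotlib 3.10.9 was used.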

Additional observations from a re-analysis of the deposited data

How the results depend on the processing

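The calls on Cd44, Ephb2, Zfp703 and Tcf7 kept their direction and their side of the threshold in all 15 alternatives, with log2 fold changes of 1.57 to 1.74, 0.69 to 0.82, -0.69 to -0.58 and 0.55 to 0.77 and limma adjusted p of at most 0.0059, 0.021, 0.014 and 0.037. Leaving out 1 library in turn gave 3 to 4 higher and 1 lower of the 10 genes, the added higher gene being Myc without arachidonic acid replicate 1. Over all tested genes it gave 1712 to 3554 higher and 1245 to 4192 lower: 3554 and 4192 without arachidonic acid replicate 1, fewest higher without arachidonic acid replicate 3 (1712) and vehicle replicate 1 (1724), and at most 1491 lower without any other library. With 1 library left out the log2 fold change of Ephb3 ran between -0.027 and 0.11, below 0 without arachidonic acid replicate 1 or vehicle replicate 2, and that of Sox9 between -0.033 and 0.036, above 0 without arachidonic acid replicate 3 or vehicle replicate 3. Sox9 was at 0.051 with TPM rescaling and 0.014 with median-of-ratios scaling. None of these passed, and the cause was not tested. No scaling moved the median of all genes by over 0.1.

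Over genes, the libraries' deviations from their group mean had correlations of -0.0811, 0.210 and -0.0623 where arachidonic acid and vehicle libraries share a replicate number, and between -0.177 and 0.190 for different numbers, so the numbers are not taken as pairs. The fit with the replicate block called the same number of the 10 genes, 3 higher and 1 lower, and over all tested genes 2263 higher and 1998 lower. Among the lists, the destruction complex had 1 higher gene with no filter and 0 lower with TPM rescaling or the replicate block, MYC targets 3 higher with no filter or the replicate block, and the CD44 list 0 lower with TPM rescaling, median-of-ratios scaling or no variance trend. Ephrins and other Eph receptors had 1 lower with a minimum of 5 FPKM, and the relatives of Sox9, Zfp703 and Prox1 1 higher with no filter or limma-voom. Genes under 1 FPKM, Prox1 and Lef1 here, are limited by depth.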
